A study of Mus musculus with 30 samples.

Results

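The liver X receptor (LXR) and cholesterol efflux genes described here are 10 genes chosen by their symbols, of the 55573 genes in each of 2 tables of normalized counts, and all 10 were present in both tables. They are the receptors *Nr1h2* and *Nr1h3*, the transporters *Abca1* and *Abcg1*, the apolipoproteins *Apoe* and *Apoc1*, and the lipid enzymes and regulators *Mylip*, *Lpcat3*, *Scd1* and *Scd2*. Polyadenylated RNA was sequenced from 30 libraries, 18 of retinal pigment epithelium (RPE) taken directly from mice at postnatal day 25 and 12 of bone marrow-derived macrophages (BMDMs) that had been differentiated from marrow of adult mice in medium conditioned by L929 cells. B6 WT and *Mertk*-/-V1 had 6 RPE libraries each, *Mertk*-/-V2 and *Mertk*-/-V3 had 3 each, and every genotype had 3 BMDM libraries. The question was how the lipid genes that respond to engulfed cargo stood in mice with different deletions of the phagocytic receptor MERTK.

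*Mertk*-/-V1 mice lack exon 17 of *Mertk*, which was targeted in embryonic stem cells of a strain other than B6, and after backcrossing to B6 they keep the neomycin cassette and a segment of chromosome 2 from that strain around the gene. *Mertk*-/-V2 mice lack exon 18, which was removed from a floxed C57BL/6NJ allele, and were then bred to C57BL/6J. *Mertk*-/-V3 mice lack exons 3 and 4 after CRISPR/Cas9 cutting in C57BL/6NJ eggs, on a mixed C57BL/6J and C57BL/6NJ background. The deletions were in every cell of the mice, and the labels name C57BL/6J as the strain of all groups, *Mertk*-/-V1 included. The labels name no cargo added to the BMDMs.

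LXRs are nuclear receptors that bind oxidized cholesterol and pair with retinoid X receptors on DNA, where they switch on genes that move cholesterol out of the cell. A phagocyte that digests an engulfed cell or a shed photoreceptor tip must dispose of its membrane cholesterol, and this route is well known in macrophages. RPE cells take up the tips of photoreceptor outer segments every day and also return lipid to the retina and the blood.

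Reads on genes came to 14137666 to 34124049 per RPE library and 16629659 to 25653814 per BMDM library. *Mertk* itself was at 2638 to 3924 normalized counts in RPE of B6 WT, at 919 to 1717 for *Mertk*-/-V1, at 444 to 1106 for *Mertk*-/-V3 and at 3565 to 5311 for *Mertk*-/-V2. The loss of 1 exon in *Mertk*-/-V2 was thus not visible as a lower gene count. The BMDM libraries had the same order, with 2414 to 2881 for B6 WT, 847 to 883 for *Mertk*-/-V1, 651 to 723 for *Mertk*-/-V3 and 3532 to 3589 for *Mertk*-/-V2. There *Mertk* was higher in *Mertk*-/-V2 than in B6 WT by 0.43 on the log2 scale (adjusted p = 0.00129 by limma). The 7 RPE markers *Rpe65*, *Lrat*, *Rlbp1*, *Best1*, *Ttr*, *Rgr* and *Stra6* summed to 183043 to 848972 in RPE libraries, and to 5.71 to 26.4 in BMDMs, where *Lrat*, *Rpe65*, *Stra6* and *Ttr* were at 0 in all libraries. The 9 macrophage and microglia markers summed to 247692 to 270550 in BMDMs and 5981 to 12705 in RPE. The 9 rod photoreceptor markers ranged from 31401 to 853792 in RPE libraries. Of all RPE libraries, *Mertk*-/-V1 replicates 5 and 6 and *Mertk*-/-V3 replicate 1 had the 3 highest rod sums (853792, 506248 and 400519) together with the 3 lowest RPE marker sums (237511, 183043 and 269751), and they are called the 3 rod-rich libraries here. B6 WT and *Mertk*-/-V1 replicates 4 to 6 in RPE were shallower than replicates 1 to 3, and the other genotypes had only replicates 1 to 3. In bulk RNA, fewer cells of a type and less RNA per cell cannot be told apart.

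In RPE, *Abca1* in *Mertk*-/-V1 was the 1 member called against B6 WT. *Abca1* (chr4:53030787-53159895, minus strand, GRCm38) encodes the transporter that hands cholesterol and phospholipid to lipid-poor apolipoprotein A1. The lowest, median and highest B6 WT libraries had 2629, 3168 and 3338 normalized counts (mean 3090 ± 253, SD, n = 6). The lowest, median and highest *Mertk*-/-V1 libraries had 1112, 1629 and 1831 (mean 1528 ± 296, SD, n = 6). Every *Mertk*-/-V1 library was below every other RPE library, of which the lowest, *Mertk*-/-V3 replicate 1, had 1847. *Abca1* fell by 1.04 on the log2 scale (SE 0.17, 95% interval -1.39 to -0.68), which was 2.05-fold lower, with an adjusted p of 0.00753 by limma on log2(normalized count + 1). Of all 18832 genes tested in this comparison 0.388% passed the same threshold, an adjusted p under 0.05, and in 1.09% the libraries of the 2 groups did not overlap, against 1 of 10 members by either measure. The p-values measure the spread between these libraries.

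**Figure D1:**
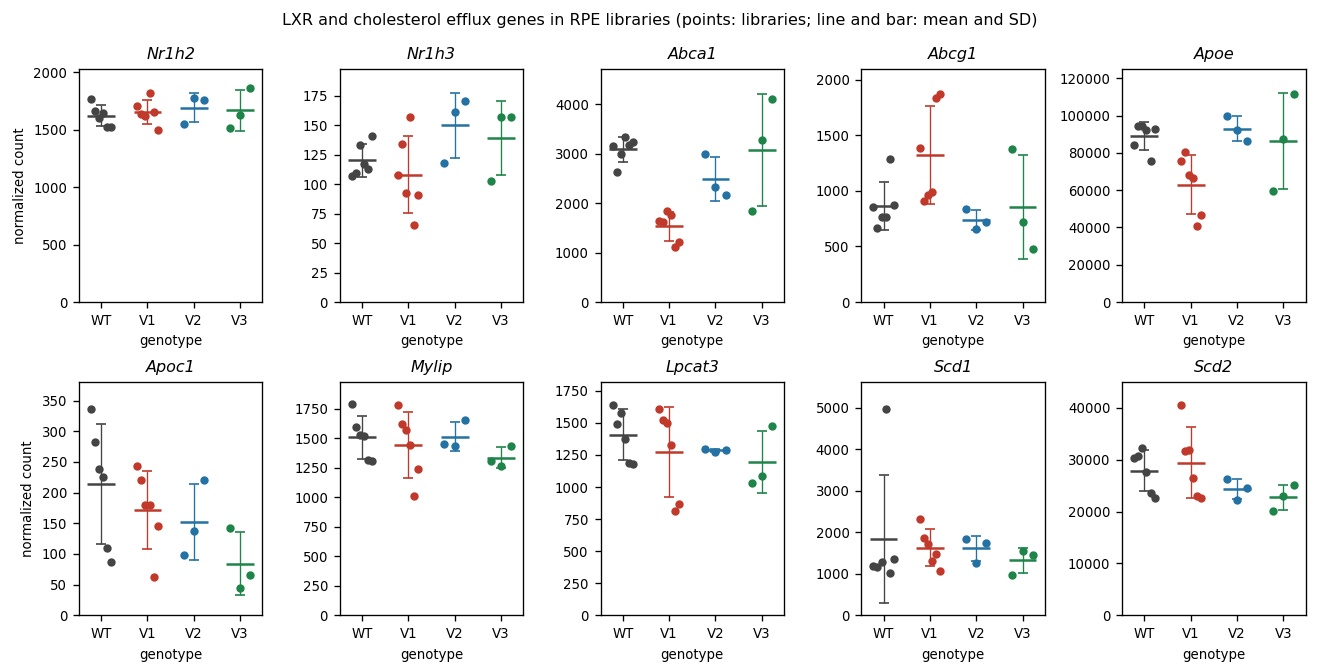
Normalized counts of the 10 genes in RPE libraries (y axes, each from 0) by genotype (x axes). Points are libraries, and lines and bars are the mean and SD. The 6 *Mertk*-/-V1 points of *Abca1* lie between 1112 and 1831, below the 6 B6 WT points at 2629 to 3338, while in the other 9 panels the *Mertk*-/-V1 and B6 WT points overlap.

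The *Abca1* difference was present in both sets of replicates. Among replicates 1 to 3 B6 WT had 2925 ± 269 normalized counts and *Mertk*-/-V1 1696 ± 116 (SD, n = 3 each), and among replicates 4 to 6 they had 3254 ± 79 and 1360 ± 347. Within a set the difference was -0.78 (adjusted p = 0.626 by limma) for replicates 1 to 3 and -1.29 (adjusted p = 0.234) for replicates 4 to 6 on the log2 scale. Neither was called, with 3 libraries a group, and the reason was not tested. The RPE markers moved with it, since 6 of 7 were lower in *Mertk*-/-V1 than in B6 WT, with a median log2 difference of -0.74 and none past the threshold. With the mean log2 level of the RPE markers as a covariate, chosen after the data had been seen, the *Abca1* difference was -0.68 (adjusted p = 0.0209 by limma). All 9 rod markers were higher in *Mertk*-/-V1, with a median of 0.23 and none past the threshold, and with them as a covariate the difference was -0.99 (adjusted p = 0.000822 by limma). Without the 3 rod-rich libraries it was -0.85 (adjusted p = 0.00107 by limma). Of the 9 macrophage and microglia markers 1, *Fcgr1*, rose in *Mertk*-/-V1 RPE, by 1.13 on the log2 scale (adjusted p = 0.00506 by limma), while the sum of the list was at 7660 to 12705 in B6 WT and 5981 to 11620 in *Mertk*-/-V1. Of this list 8 of 9 markers were above 0 in log2 difference, with a median of 0.65, and their part in the *Abca1* difference was not tested. Markers of other retinal and stromal cells were also mostly above 0 in *Mertk*-/-V1, with none of their genes past the threshold. They were 5 of 5 cone markers (median 0.63), 5 of 6 of Mueller glia (0.59), 5 of 5 of fibroblasts (0.43) and 6 of 6 of endothelium (0.28), while the 2 or 3 genes tested of each other list had medians of 0.62 (neutrophil), 0.25 (dendritic cell), -0.09 (lymphocyte) and -0.15 (adipocyte). Their part was not tested either.

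**Figure D2:**
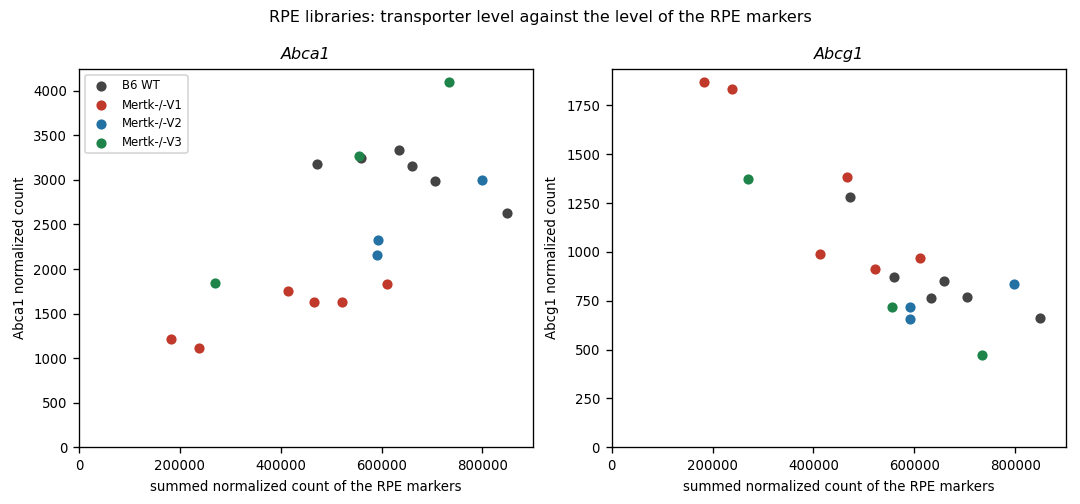
*Abca1* and *Abcg1* in RPE libraries (y axes, normalized count) against the summed normalized count of the 7 RPE markers (x axes). Points are libraries in the colour of their genotype. The 2 *Mertk*-/-V1 libraries with the least RPE marker signal have the lowest *Abca1* and the highest *Abcg1*, and the other 4 *Mertk*-/-V1 libraries lie below the B6 WT libraries in *Abca1* at RPE marker sums of 413760 to 610454.

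In *Mertk*-/-V2 and *Mertk*-/-V3 RPE *Abca1* did not pass the test. In the order of replicates 1 to 3, used for all groups of 3, the *Mertk*-/-V2 libraries had 2994, 2327 and 2154 normalized counts, with a log2 difference from B6 WT of -0.32 (95% interval -0.76 to 0.12). The *Mertk*-/-V3 libraries had 1847, 3273 and 4097, with a difference of -0.08 (95% interval -0.52 to 0.36). Both groups thus reached from below the lowest B6 WT library into or past the B6 WT range. *Abca1* in *Mertk*-/-V1 differed from the average of the other knockouts by -0.84 (95% interval -1.19 to -0.48) with an adjusted p of 0.0617 by limma. In that comparison 0 of 10 members and 0.207% of all genes were called, with 4 members and 9.56% of all genes at an unadjusted p under 0.05, 0 members called by edgeR and 1, *Abca1*, by DESeq2 (adjusted p = 0.00055). Without *Mertk*-/-V3 replicate 1 the difference was larger and was called (adjusted p = 0.0025 by limma). That library had the lowest *Abca1* of its group, 1847, so leaving it out widens the gap and this fit is no independent support. With any other single knockout library left out *Abca1* was not called (adjusted p = 0.0759 to 0.222 by limma).

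The promoter of *Abca1* is shown because it is the gene that fell. It spans chr4:53159846-53160145 on the minus strand of GRCm38.p6 in RefSeq, from 250 bases before the start to 50 after it, and capitals mark the stretch closest to the LXR motif AGGTCA, 4 bases of any kind, AGGTCA, which was searched on both strands.
Abca1 promoter: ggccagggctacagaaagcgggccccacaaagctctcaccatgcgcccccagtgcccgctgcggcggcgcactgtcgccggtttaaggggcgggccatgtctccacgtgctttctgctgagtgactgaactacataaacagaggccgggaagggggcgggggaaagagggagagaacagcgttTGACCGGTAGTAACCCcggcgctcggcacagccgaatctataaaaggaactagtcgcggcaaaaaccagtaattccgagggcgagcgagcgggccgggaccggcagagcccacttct
The capitals read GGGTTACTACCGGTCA on the other strand, lie 67 to 52 bases before the start and differ from the motif at 3 bases, a tolerance chosen after the values were seen. Such a stretch, with at most 3 mismatches, was present in 21.9% of all 32851 promoter windows, and one with at most 2 in 3.02%, at most 1 in 0.25% and a stretch with 0 mismatches in 0.0152%. *Nr1h2*, *Nr1h3*, *Apoe*, *Mylip* and *Lpcat3* had 8 windows, in which the nearest stretch had 4 mismatches or, for *Mylip*, 5. *Abcg1*, *Apoc1*, *Scd1* and *Scd2* had none in the table. A match in letters does not by itself show a site, and its absence says nothing about binding. Whether LXR binds the marked stretch was not tested.

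*Abcg1* (chr17:31057675-31117988) encodes a transporter that passes cholesterol to mature high-density lipoprotein particles. In B6 WT RPE its lowest, median and highest libraries had 664, 810 and 1283 normalized counts, and 912, 1186 and 1868 for *Mertk*-/-V1. The *Mertk*-/-V2 libraries had 834, 657 and 717, and the *Mertk*-/-V3 libraries 1373, 718 and 474. The highest values were in *Mertk*-/-V1 replicates 5 and 6 (1836 and 1868) and, within its group, *Mertk*-/-V3 replicate 1, the 3 libraries with the least RPE marker signal, and the groups overlapped. The difference of *Mertk*-/-V1 from B6 WT was 0.58 on the log2 scale (95% interval 0.06 to 1.10, adjusted p = 0.672 by limma). It was 0.00 with the RPE markers as a covariate, and 0.31 without the 3 rod-rich libraries.

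*Apoe* (chr7:19696109-19699188) encodes the main lipid-binding apolipoprotein of brain, retina and macrophages. Its lowest, median and highest RPE libraries had 75888, 92580 and 94702 normalized counts for B6 WT and 40546, 67254 and 80303 for *Mertk*-/-V1. The *Mertk*-/-V2 libraries had 99908, 92195 and 86599, and the *Mertk*-/-V3 libraries 59843, 87722 and 111573. Of the *Mertk*-/-V1 libraries 5 of 6 were below all of B6 WT, and the highest overlapped. The *Mertk*-/-V1 difference was -0.54 on the log2 scale (95% interval -0.95 to -0.13, adjusted p = 0.508 by limma), and -0.13 with the RPE markers as a covariate. *Apoc1* (chr7:19689481-19692660) is its neighbour and encodes a small apolipoprotein that inhibits lipid transfer and uptake. It had 86.3, 232 and 337 in B6 WT RPE and 63.2, 180 and 243 in *Mertk*-/-V1, with overlapping ranges. The *Mertk*-/-V2 libraries had 98.3, 137 and 220 and the *Mertk*-/-V3 libraries 142, 44.9 and 66.3, of which 2 were below all B6 WT libraries. The *Mertk*-/-V3 difference was -1.34 on the log2 scale (95% interval -2.37 to -0.31, adjusted p = 0.449 by limma).

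Both receptors overlapped B6 WT in the RPE of every knockout. *Nr1h2* (chr7:44549616-44553951), which encodes the widely expressed LXR beta, had 1520, 1627 and 1768 normalized counts in B6 WT (lowest, median, highest), 1500, 1643 and 1824 for *Mertk*-/-V1, 1547, 1778 and 1757 for *Mertk*-/-V2 and 1513, 1629 and 1862 for *Mertk*-/-V3. Its *Mertk*-/-V1 difference from B6 WT was 0.03 on the log2 scale. *Nr1h3* (chr2:91184061-91202834) encodes LXR alpha and lies on the chromosome of *Mertk* (chr2:128698956-128802894), but whether it is within the segment from the other strain was not tested. It had 107, 115 and 141 for B6 WT and 65.6, 100 and 157 for *Mertk*-/-V1 RPE. The *Mertk*-/-V2 libraries had 118, 161 and 170 and the *Mertk*-/-V3 libraries 103, 157 and 157, and all groups overlapped.

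The lipid enzymes and regulators likewise overlapped between the 6 B6 WT libraries and each knockout in RPE, although not in all cases between replicates 1 to 3 alone. *Mylip* (chr13:45389742-45412022) encodes the ubiquitin ligase that sends the LDL receptor to degradation, and it ranged from 1309 to 1792 normalized counts for B6 WT, 1012 to 1784 for *Mertk*-/-V1, 1432 to 1654 for *Mertk*-/-V2 and 1266 to 1434 for *Mertk*-/-V3. *Lpcat3* (chr6:124663027-124704418), which adds polyunsaturated acyl chains to phospholipids, ranged from 1180 to 1643, 813 to 1606, 1271 to 1295 and 1030 to 1475 in the same order. *Scd1* (chr19:44394455-44407879) and *Scd2* (chr19:44293674-44306864) encode desaturases that make monounsaturated fatty acids. *Scd1* was between 974 and 2319 in all RPE libraries but B6 WT replicate 4, which had 4966. *Scd2* ranged from 22575 to 32293 for B6 WT, 22568 to 40609 for *Mertk*-/-V1, 22237 to 26225 for *Mertk*-/-V2 and 20146 to 25033 for *Mertk*-/-V3.

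As a list, the 10 members had a median log2 difference from B6 WT of -0.13 for *Mertk*-/-V1 RPE, -0.06 for *Mertk*-/-V2 and -0.15 for *Mertk*-/-V3, where the medians over all genes tested were 0.02, 0.02 and -0.01. By limma 0 members passed the test in *Mertk*-/-V2, where 0.0690% of all genes did, and 0 in *Mertk*-/-V3, where 0.0690% did too. At an unadjusted p under 0.05 there were 3 members for *Mertk*-/-V1, 0 for *Mertk*-/-V2 and 1 for *Mertk*-/-V3, beside 6.81%, 5.47% and 11.1% of all genes, and edgeR and DESeq2 called 0 members in the last 2 groups. In neither group did any member leave the B6 WT range in all libraries, while 5.66% of all genes did so in *Mertk*-/-V2 and 4.32% in *Mertk*-/-V3. All comparisons with B6 WT share its libraries.

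The *Mertk*-/-V2 and *Mertk*-/-V3 libraries were all numbered 1 to 3, and set against B6 WT replicates 1 to 3 alone they overlapped for fewer members. By depth the *Mertk*-/-V3 libraries, at 16476097 to 21573517 reads on genes, were below B6 WT replicates 1 to 3, at 23417838 to 30196674. B6 WT replicates 4 to 6 had 14137666 to 18266704, and no label says which set *Mertk*-/-V3 belongs with. In B6 WT replicates 1 to 3 *Scd2* was at 30357 to 32293 normalized counts, *Lpcat3* at 1494 to 1643, *Apoc1* at 238 to 337 and *Mylip* at 1531 to 1792. B6 WT replicates 4 to 6 were lower, at 22575 to 27574, 1180 to 1376, 86.3 to 226 and 1309 to 1517 in this order, and overlapped with *Mertk*-/-V3. All *Mertk*-/-V3 libraries were below the ranges of B6 WT replicates 1 to 3 for the 4 genes. All *Mertk*-/-V2 libraries were below them for *Scd2*, *Lpcat3* and *Apoc1*. These 4 of 10 members in *Mertk*-/-V3 and 3 of 10 in *Mertk*-/-V2 stood beside 36.9% and 33.2% of all genes without overlap among replicates 1 to 3. For *Mertk*-/-V1 it was 4 of 10 members, *Abca1* and *Apoe* lower and *Abcg1* and *Scd1* higher, beside 13.4%.

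The *Mertk*-/-V3 counts depended on the set of replicates. The set was taken from the replicate number alone, and whether *Mertk*-/-V3 belongs by its depth with replicates 4 to 6 was not tested. With replicates 1 to 3 or 4 to 6 as a term, 4 of 10 members were called, all lower in *Mertk*-/-V3 than in B6 WT, while 25.2% of all genes were called. They were *Apoc1* (-1.83 on the log2 scale, adjusted p = 0.0105 by limma), *Scd2* (-0.50, adjusted p = 0.0148), *Lpcat3* (-0.49, adjusted p = 0.0317) and *Mylip* (-0.34, adjusted p = 0.0372). When *Mertk*-/-V1 was set against the average of the other knockouts, the same term gave 2 of 10 members, *Abca1* at -0.79 and *Scd2* at 0.51 (adjusted p = 0.0216 and 0.0148 by limma), beside 9.71% of all genes.

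**Figure D3:**
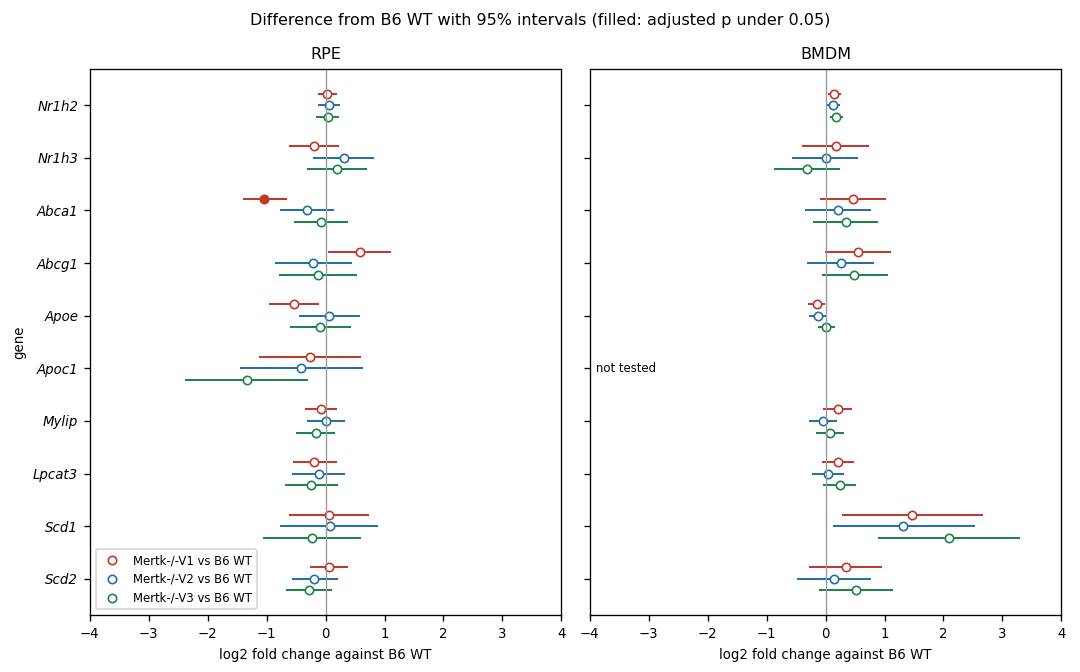
Log2 fold change of each member against B6 WT (x axes, -4 to 4) in RPE and BMDMs, with a point for each knockout and its 95% interval as a bar. Filled points have an adjusted p under 0.05 by limma. The 1 filled point is *Abca1* in *Mertk*-/-V1 RPE at -1.04, and the widest intervals are those of *Scd1* in BMDMs and *Apoc1* in RPE, which was not tested in BMDMs.

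In BMDMs, no member was called in any knockout, and 8 of 9 log2 differences from B6 WT were above 0 for *Mertk*-/-V1, 6 of 9 for *Mertk*-/-V2 and 8 of 9 for *Mertk*-/-V3. The median log2 difference of the 9 members tested was 0.21 for *Mertk*-/-V1, 0.12 for *Mertk*-/-V2 and 0.24 for *Mertk*-/-V3, where the median over all genes was 0.00 in each. The share of all 13420 genes called was 7.07% for *Mertk*-/-V1, 4.61% for *Mertk*-/-V2, 1.17% for *Mertk*-/-V3 and 0.991% for *Mertk*-/-V1 against the mean of the other two, against 0 of 9 members each by limma. At an unadjusted p under 0.05 there were 4, 3, 2 and 0 members in these comparisons, beside 23.6%, 21.4%, 15.9% and 11.8% of all genes. Of the members edgeR called 0, and DESeq2 called 0 except for *Nr1h2* in *Mertk*-/-V3 (0.19 on the log2 scale, adjusted p = 0.0162). Groups did not overlap for 4 of 9 members with *Mertk*-/-V1, 1 with *Mertk*-/-V2 and 4 with *Mertk*-/-V3, all higher than B6 WT, beside 30.9%, 22.7% and 25.4% of all genes. Of the marker lists of other cell types, 2 genes were called in BMDMs. The endothelial *Vwf* was higher by 0.76 in *Mertk*-/-V1 and by 0.49 in *Mertk*-/-V2 on the log2 scale. *Fabp4* of the adipocyte list was higher by 0.75 in *Mertk*-/-V1. The other 7 of the 8 adipocyte genes had a mean under 10 in BMDMs, so the list does not show adipocytes there. The part of *Vwf* and *Fabp4* in the members' values was not tested.

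*Nr1h2* was the member that stood above B6 WT in all BMDM libraries of each knockout. All knockouts were set against the same B6 WT libraries, and for a single knockout 22.7% to 30.9% of all genes did not overlap, in either direction. The share of all genes apart from B6 WT in every knockout was not counted. The B6 WT libraries had 1864, 1848 and 1886 normalized counts. The *Mertk*-/-V1 libraries had 2114, 2010 and 2054, the *Mertk*-/-V2 libraries 2043, 2114 and 1947 and the *Mertk*-/-V3 libraries 2024, 2151 and 2188. The log2 differences were 0.14 (adjusted p = 0.0717), 0.12 (adjusted p = 0.128) and 0.18 (adjusted p = 0.0643) by limma. *Nr1h3* was near 50 in most libraries, with 52.6, 48.1 and 50.8 for B6 WT, 58.7, 58 and 54 for *Mertk*-/-V1, 52.2, 38.3 and 63.6 for *Mertk*-/-V2 and 52.4, 25.6 and 49 for *Mertk*-/-V3.

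The transporters and desaturases had a wide spread within the B6 WT and *Mertk*-/-V2 BMDMs. *Abca1* had 4292, 4547 and 6509 normalized counts in B6 WT, 7175, 6746 and 6821 for *Mertk*-/-V1, 8787, 6713 and 3327 for *Mertk*-/-V2 and 6357, 6536 and 6172 for *Mertk*-/-V3. *Abcg1* had 2023, 1900 and 2911 for B6 WT, 3352, 3040 and 3467 for *Mertk*-/-V1, 3627, 3540 and 1486 for *Mertk*-/-V2 and 3100, 3070 and 3286 for *Mertk*-/-V3. For both genes B6 WT replicates 1 and 2 and *Mertk*-/-V2 replicate 3 were low. The *Mertk*-/-V1 difference from B6 WT was 0.46 for *Abca1* (95% interval -0.08 to 1.00, adjusted p = 0.29) and 0.55 for *Abcg1* (95% interval 0.00 to 1.10, adjusted p = 0.208) by limma.

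Of the 9 members tested in BMDMs, *Scd1* had the widest spread over the 12 libraries on the log2 scale (SD 1.09). The B6 WT libraries had 256, 227 and 1082 normalized counts, and *Mertk*-/-V1 had 1046, 1050 and 1222. The other knockouts had 1816, 1439 and 379 for *Mertk*-/-V2 and 1859, 1478 and 1795 for *Mertk*-/-V3. The log2 differences from B6 WT were 1.47 (95% interval 0.29 to 2.65, adjusted p = 0.121), 1.32 (95% interval 0.14 to 2.51, adjusted p = 0.182) and 2.10 (95% interval 0.91 to 3.28, adjusted p = 0.0811) by limma. Without B6 WT replicate 3 *Scd1* was called in all 3, at 2.19, 2.05 and 2.82 (adjusted p = 0.0115, 0.0256 and 0.00996 by limma). That left B6 WT at 256 and 227, the lowest values of the 12 libraries, so this fit is no independent support. Over all single libraries left out the differences were 1.07 to 2.19, 0.89 to 2.05 and 1.69 to 2.82, with adjusted p up to 0.378, 0.457 and 0.33 by limma. Such fits called 243 to 1200, 148 to 1168 and 33 to 249 of all genes. *Scd2* had 18109, 16677 and 29177 for B6 WT, 26650, 22492 and 29546 for *Mertk*-/-V1, 30680, 30958 and 12408 for *Mertk*-/-V2 and 30385, 30531 and 27858 for *Mertk*-/-V3, with overlap in each case.

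*Apoe*, *Mylip* and *Lpcat3* lay within a narrow range in BMDMs. *Apoe* had 38004, 38227 and 35171 normalized counts in B6 WT, 36030, 31467 and 32882 for *Mertk*-/-V1, 32003, 35771 and 33747 for *Mertk*-/-V2 and 36387, 38181 and 37470 for *Mertk*-/-V3. Its *Mertk*-/-V1 difference was -0.15 (adjusted p = 0.154 by limma), with overlapping groups. *Mylip* was between 926 and 1403 in the 12 libraries and *Lpcat3* between 1496 and 2406. *Apoc1* was near absent, with 0 to 4.02 normalized counts in the 12 libraries, and was under the mean of 10 that was needed for testing.

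The low values of 6 members came from the same 3 BMDM libraries. B6 WT replicates 1 and 2 and *Mertk*-/-V2 replicate 3 were the 3 lowest of 12 libraries for *Abca1*, *Abcg1*, *Mylip*, *Lpcat3*, *Scd1* and *Scd2*, beside 4.90% of the 13420 genes tested, and these libraries were picked out after the values were seen. In them *Scd1* was at 227 to 379 normalized counts and in the other 9 libraries at 1046 to 1859. *Abca1* was at 3327 to 4547 and at 6172 to 8787, and *Scd2* at 12408 to 18109 and at 22492 to 30958. The libraries do not follow genotype, and no label sets them apart. B6 WT replicates 1 and 2 are part of the reference for every knockout, and their part in the BMDM differences above 0 was not tested. Without *Mertk*-/-V2 replicate 3, 4 of 9 members were called in *Mertk*-/-V2 against B6 WT, beside 8.72% of all genes. They were *Abca1* (0.61 on the log2 scale, adjusted p = 0.0143 by limma), *Abcg1* (0.68, adjusted p = 0.00549), *Scd1* (2.02, adjusted p = 0.0132) and *Scd2* (0.58, adjusted p = 0.0481), all higher. That library was picked for its low values of these genes, and the low B6 WT libraries were kept, so this fit cannot test the knockout. Over all single libraries left out the differences were -0.09 to 0.61, 0.04 to 0.68, 0.89 to 2.05 and -0.08 to 0.58 in this order.

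**Figure D4:**
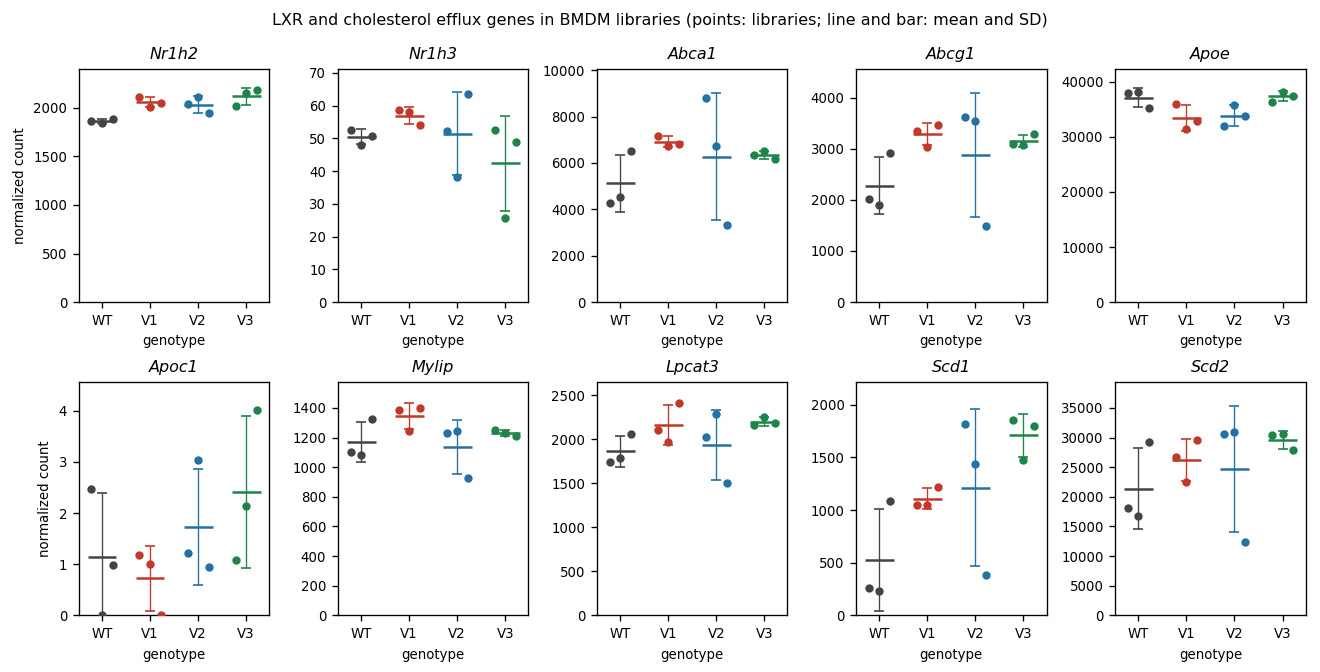
Normalized counts of the 10 genes in BMDM libraries (y axes, each from 0) by genotype (x axes). Points are libraries, and lines and bars are the mean and SD of 3 libraries. In *Abca1*, *Abcg1*, *Scd1* and *Scd2*, 2 B6 WT points and 1 *Mertk*-/-V2 point lie below all others, with *Scd1* at 227 to 379 against 1046 to 1859.

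**Figure D5:**
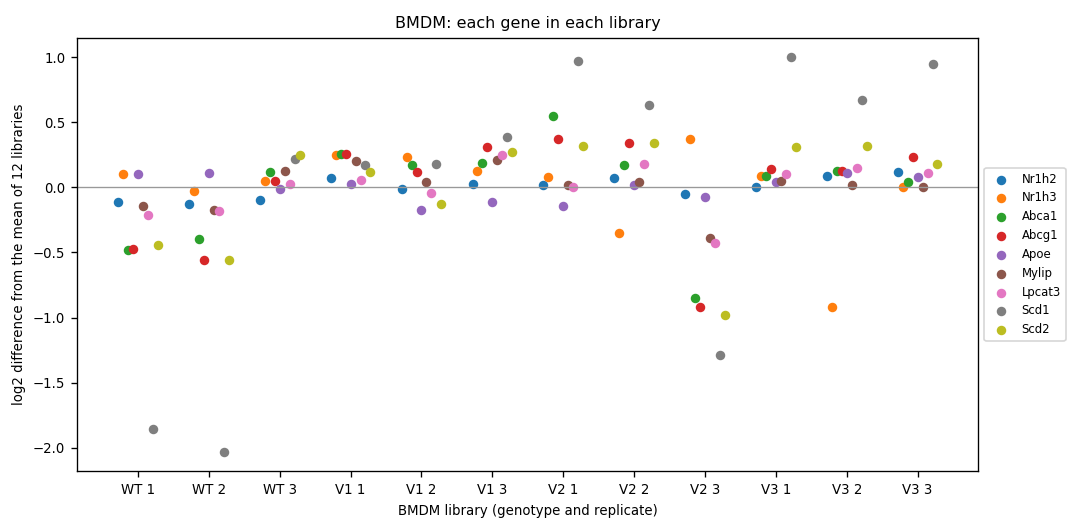
Log2 difference of 9 members from their mean over 12 BMDM libraries (y axis) in each library (x axis, genotype and replicate). Each colour is a gene. The points of *Abca1*, *Abcg1*, *Mylip*, *Lpcat3*, *Scd1* and *Scd2* drop together in B6 WT replicates 1 and 2 and *Mertk*-/-V2 replicate 3, while those of *Nr1h2*, *Nr1h3* and *Apoe* are not the 3 lowest there.

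The genes whose levels followed *Abca1* most closely differed between the tissues. Over the 18 RPE libraries, the 5 genes with the highest Pearson correlation with *Abca1* of 18831 genes were *Ivd* (0.927), *Prlr* (0.924), *Spg11* (0.917), *Clca3a1* (0.917) and *Trhde* (0.916). *Apoe* was at 0.860, *Abcg1* at -0.760 and the mean of the RPE markers at 0.749, and the libraries also differ in their RPE content. Over the 12 BMDM libraries *Ncoa4* (0.967), *Socs6* (0.960), *Lpin1* (0.959) and *Abcg1* (0.959) were among the 5 highest of 13419 genes, and the other members ranged from 0.909 for *Scd2* to -0.322 for *Apoe*. These values describe these libraries, which include the knockouts and share their depth and makeup. In RPE *Abca1* was lowest in *Mertk*-/-V1, so a gene lower in that line for any reason would correlate with it. Whether the genes named for RPE lie in the chromosome 2 segment of that line was not tested.

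The *Mertk*-/-V1 effect on *Abca1* was -1.04 in RPE and 0.46 in BMDMs on the log2 scale, and the difference of these effects, RPE minus BMDM, was -1.43 in an edgeR model of all 30 libraries (adjusted p = 0.0684). No member passed that test in *Mertk*-/-V1, where 0.158% of 20873 genes did, in *Mertk*-/-V2, where 0.0431% did, or in *Mertk*-/-V3, where 0.0192% did. At an unadjusted p under 0.05 there were 1, 0 and 3 members, beside 7.04%, 8.54% and 4.82% of all genes, and DESeq2 called *Abca1* in *Mertk*-/-V1 (-1.43, adjusted p = 0.00563) and 0 in the other two. Without the 3 rod-rich RPE libraries *Abca1* was called (adjusted p = 0.0344 by edgeR). The median tissue difference of the 10 members was -0.27 for *Mertk*-/-V1, -0.28 for *Mertk*-/-V2 and -0.38 for *Mertk*-/-V3, where the medians over all genes were 0.03, -0.02 and -0.02.

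Between the B6 WT tissues most members differed, as did most genes. In the edgeR model 8 of 10 members were called between B6 WT RPE and B6 WT BMDMs, beside 85.5% of all genes, and the tables were normalized separately, so that levels were set on 1 scale by TMM normalization of the recovered reads. Relative to BMDMs, *Apoe* was higher in RPE by 0.84, *Nr1h3* by 0.83 and *Scd1* by 1.39 on the log2 scale, while *Abcg1* was at -1.82, *Abca1* at -1.15, *Lpcat3* at -0.82 and *Nr1h2* at -0.62. *Apoc1* was also higher in RPE, and no fold is given because B6 WT BMDM libraries had 3, 0 and 1 reads. *Mylip* (-0.05) and *Scd2* (-0.04) were not called, and their sign turned (0.01 and 0.03) when libraries were scaled by their totals alone. The median over the 10 members was -0.04 and that over all genes 0.64. *Scd1* lost its call without RPE replicate 4 (0.79, adjusted p = 0.0781) and without BMDM replicate 1 (1.06, adjusted p = 0.0974) or 2 (1.03, adjusted p = 0.102). The Y-linked *Ddx3y* was at 1974 to 3009 in all RPE libraries and 0 in all BMDM libraries, and *Xist* at 10.9 to 53.6 and 2822 to 5686. RPE was taken directly from mice at postnatal day 25 and BMDMs were cultured from adult marrow, so tissue, sex, age and culture cannot be told apart. The B6 WT RPE libraries also held markers of rods (31401 to 335574), cones (855 to 7396) and Mueller glia (54377 to 66970). Their part in the tissue differences was not tested.

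Per kilobase of exon, the B6 WT levels of the members had a similar top in both tissues. In RPE *Apoe* was highest at 41660 ± 3493 normalized counts per kilobase (SD, n = 6) and *Scd2* followed at 5096 ± 730, neither overlapping with the next. *Nr1h2* (484), *Mylip* (467), *Lpcat3* (431), *Scd1* (374), *Abca1* (298), *Apoc1* (287) and *Abcg1* (119) came after, each overlapping with its neighbour, and *Nr1h3* at 47.7 ± 5.55 was below all of them. In BMDMs *Apoe* was at 17368 ± 797 (SD, n = 3) and *Scd2* at 3902 ± 1252, then *Lpcat3* (570), *Nr1h2* (556) and *Abca1* (494) with overlap, then *Mylip* (362) and *Abcg1* (312) with overlap. *Scd1* at 107 ± 99.3, *Nr1h3* at 20.1 ± 0.905 and *Apoc1* at 1.54 ± 1.67 were last, each apart from the next.

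Of 32 other genes of the pathway, 30 were tested in RPE and 26 in BMDMs, and none was called in any RPE comparison of genotypes by limma, with 7, 7 and 2 at an unadjusted p under 0.05 for *Mertk*-/-V1, *Mertk*-/-V2 and *Mertk*-/-V3, beside 6.81%, 5.47% and 11.1% of all genes. In BMDMs 1 was called, *Ncoa1*, a coactivator of nuclear receptors, which rose by 0.28 for *Mertk*-/-V1 (adjusted p = 0.0334) and by 0.31 for *Mertk*-/-V2 (adjusted p = 0.0314) by limma. Its levels were 856 to 976 normalized counts in B6 WT, 1074 to 1131 for *Mertk*-/-V1, 1006 to 1226 for *Mertk*-/-V2 and 960 to 1059 for *Mertk*-/-V3. Between B6 WT RPE and BMDMs 25 of 30 were called by edgeR, 8 higher and 17 lower in RPE. *Vldlr*, which takes up triglyceride-rich lipoproteins, was at 4966 to 6538 in RPE and 3.26 to 9.87 in BMDMs. *Lpl*, the lipase of such particles, was at 1121 to 2116 and 22386 to 27346, and *Pltp*, which moves phospholipid between lipoproteins, at 11606 to 19269 and 695 to 1374. The retinoid X receptor *Rxrg* and the sterol transporters *Abcg5* and *Abcg8* were at 59.3 to 91.7, 18.8 to 41 and 11 to 24.1 in RPE and at 0 in the 3 B6 WT BMDM libraries. The part of other retinal cells in these RPE levels was not tested.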

How the data were processed

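The authors used btrim for trimming, STAR for alignment to GRCm38 and DESeq2 for normalization. The read counter, annotation and versions are not given in the sources used here. For each tissue they deposited a table of gene signal, counts divided by 1 size factor per library. All values came out as whole reads (100% in every library, within 0.01), and these recovered reads gave the depths. Libraries were grouped by tissue and genotype from the labels.

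The test was limma 3.58.1 (trend) in R 4.3.3 on log2(value + 1) for genes whose mean was 10 or more, with the 4 genotypes of a tissue in 1 model and Benjamini-Hochberg adjustment over all genes tested. Tissues were compared with edgeR 4.0.16 (quasi-likelihood, TMM) on recovered reads. Alternatives were edgeR and DESeq2 1.42.0 within tissues, a pseudocount of 5, no filter, only the groups compared, TMM scaling, array quality weights, the replicate block, marker covariates, sets of replicates and each library left out, and scripts were tested on simulated data. Exon lengths and positions came from GENCODE mouse release 21, promoters from RefSeq.

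The members and lists were chosen with earlier results of these data known. All 10 members are named, together with *Mertk*, up to 6 called genes a comparison of the 32 other pathway genes, and the 5 genes most like *Abca1* in each tissue, of which 1 is not reported here. Other genes named, the RPE marker covariate, the libraries left out together and the tolerance of 3 mismatches were chosen after values were seen. Beside the lists given in the results, summed markers in RPE libraries were 44896 to 68481 for Mueller glia, 855 to 13092 for cones, 145 to 347 for dendritic cells, 2908 to 7967 for endothelium, 18941 to 50371 for fibroblasts, 29 to 95.4 for lymphocytes, 9.72 to 1053 for neutrophils and 44.7 to 646 for adipocytes. A count of 0 reads still allows up to 3 reads, for counting error only.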

Additional observations from a re-analysis of the deposited data

Results flagged for a closer look

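In 2 of 20 cases, the 10 members in each of the 2 genotypes with 6 RPE libraries, a single library lay far from the rest of its genotype, with a gap to its nearest neighbour that was a large share of the whole range, and chance gives about 1 in 20. *Scd1* in B6 WT replicate 4 was at 4966 normalized counts, with a gap of 0.915 of the range. The same library had the highest sum of 8 adipocyte genes of the RPE libraries, 646, of which *Fabp4* was at 228, *Cfd* at 144, *Plin1* at 77.7 and *Adipoq* at 66.6, while the next highest, *Mertk*-/-V2 replicate 3, was at 279. This list was chosen after the value of *Scd1* was seen, and its part in that value was not tested. *Abcg1* in B6 WT replicate 5 was at 1283, with a gap of 0.667 of the range, and this library had the highest rod marker sum (335574) and the lowest RPE marker sum (471732) of the 6 B6 WT libraries. Their part in its *Abcg1* value was not tested.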

How the results depend on the processing

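*Abca1* in *Mertk*-/-V1 RPE was called under all alternatives but 3, where the count of members was 0: within replicates 1 to 3, within replicates 4 to 6 and with the study's threshold on fold change added. For *Mertk*-/-V3 against B6 WT in RPE the count rose from 0 to 5 with array quality weights, where 66.9% of all genes were called, and to 4 each with a replicate block (29.8%), with the set of replicates as a term (25.2%) and within replicates 1 to 3 (21.9%). For *Mertk*-/-V1 against the mean of the other knockouts in RPE it went from 0 to 1 by DESeq2 (0.791% of all genes), 8 with array weights (28.9%), 3 with a replicate block (12.4%), 2 with rod markers as a covariate (0.876%), 2 with the set term (9.71%), 1 within replicates 1 to 3 (11.5%), 2 with the RPE markers (1.23%) and 1 without the 3 rod-rich libraries (3.76%), and *Lpcat3* turned from -0.01 to 0.29 with array weights. In BMDMs it went from 0 to 2 with only the groups compared (9.75%) and 8 with array weights (20.6%) in *Mertk*-/-V1, 2 with array weights (8.81%) in *Mertk*-/-V2, and 2, 1 and 5 with only the groups compared, DESeq2 and array weights (4.17%, 3.00% and 12.6%) in *Mertk*-/-V3. For the tissue difference it went to 1 by DESeq2 (0.580%) and 1 without the rod-rich libraries (0.365%) in *Mertk*-/-V1, and to 1 (*Lpcat3*) with a replicate block (7.57%) and 1 within RPE replicates 1 to 3 (6.74%) in *Mertk*-/-V3. The causes were not tested.

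Leaving out 1 library at a time gave 1 to 1 members for *Mertk*-/-V1 against B6 WT in RPE, 0 to 1 against the mean of the other knockouts, and 0 to 0 for the other RPE comparisons. In BMDMs it gave 0 to 1 in *Mertk*-/-V1, 0 to 4 in *Mertk*-/-V2, 0 to 1 in *Mertk*-/-V3 and 0 to 0 against the mean of the other knockouts. The B6 WT tissues gave 7 to 8, and the tissue differences 0 to 0. Of the members' 2361 log2 values under alternatives 153 changed sign, 1 of them with a call under the alternative, and of the 2208 that kept their sign 68 gained a call and 6 lost one. The number of all genes called varied widely, from 12 to 297 around 73 for *Mertk*-/-V1 RPE, 11 to 861 around 13 for *Mertk*-/-V2, 3 to 12592 around 13 for *Mertk*-/-V3 and 17 to 5444 around 39 for the mean of knockouts. In BMDMs it was 565 to 2766 around 949, 69 to 1182 around 618, 77 to 1693 around 157 and 115 to 209 around 133. The tissue differences called 29 to 121 around 33, 8 to 274 around 9 and 3 to 1581 around 4.

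Not every pair of libraries with the same replicate number deviated together. In RPE 13 of 21 such pairs had a correlation over 0.1 (median 0.15, from -0.46 to 0.72, against 0.00 for other pairs), in BMDMs 4 of 18 (median -0.09, against 0.04), and 3 of 18 and 5 of 12 libraries correlated best with their own number. The replicate block, under which *Abca1* in *Mertk*-/-V1 RPE kept an adjusted p of 0.0231, pairs samples by number only. Groups of 3 libraries, the unlabelled sets of RPE replicates and the varying RPE and rod content limit these results, and BMDM *Apoc1* was below the depth needed for a test.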
